A study of Homo sapiens with 4 samples.

Results

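The 10 genes described here, ALB, AFP, TTR, TF, HP, SERPINA1, FGB, FGA, FGG and C3, encode proteins that the liver secretes into plasma. Their loci were taken as the gene plus 10 kb on either side, and a peak belonged to a locus when it overlapped that window by at least 1 bp. By this rule 55 of 46380 peaks lay at the loci. They were 32 of 29441 SMRC1 peaks, 8 of 3296 SATB1 peaks and 15 of 13643 NFIC peaks. The peaks came from ChIP-seq of HepG2, an established human liver cancer line, fixed in 1% formaldehyde for 10 min and untreated as far as the labels say. The antibodies were directed against SMRC1 (the database entry name of SMARCC1, or BAF155, a core subunit of SWI/SNF chromatin remodelling complexes), SATB1 (an organiser of chromatin that binds DNA) and NFIC (nuclear factor I C, a DNA-binding transcription factor). Each antibody had 1 library, which is 1 peak list, and an input library that the labels also name was not analysed here. No difference could therefore be set against a spread between replicates, no test over samples was possible, and all values describe these 3 libraries.

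Plasma proteins are among the most abundant products of hepatocytes, and HepG2 cells are widely used because they still secrete many of them. Transcription of these genes in liver is known to rest on promoters and nearby enhancers that bind hepatocyte factors such as HNF1, HNF4, C/EBP and FOXA proteins, and nuclear factor I proteins are classical factors of the albumin promoter. SWI/SNF complexes move or evict nucleosomes at such elements. RNA was not measured here, so the peaks say nothing of how strongly each gene was transcribed.

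Positions are those of build hg19. Those of the genes are given in whole kb, so a distance from a gene start can be off by about 1 kb. ALB (74269 to 74288 kb) and AFP (74301 to 74322 kb) are neighbours on chromosome 4, and their windows overlap. FGB (155484 to 155492 kb), FGA (155504 to 155512 kb) and FGG (155525 to 155534 kb) form the fibrinogen cluster on the same chromosome, again with overlapping windows. TTR lies on chromosome 18 (29171 to 29179 kb), TF on chromosome 3 (133464 to 133498 kb), SERPINA1 on chromosome 14 (94843 to 94857 kb), C3 on chromosome 19 (6677 to 6721 kb) and HP on chromosome 16 (72088 to 72095 kb). The 10 windows thus make up 7 separate stretches of 350 kb in all. SERPINA1, FGA, FGG and C3 are transcribed from the minus strand, so their start is the higher coordinate. A peak was placed at a gene start when it came within 1 kb of it.

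Promoter letters are shown for ALB and AFP, where no list had a peak over the gene start, and for FGA and FGG, where SMRC1 alone had one. SERPINA1 and FGB also had no listed peak over the start used here, and their letters are not shown. The letters are the 250 bases before the RefSeq start in GRCh38.p14, a build other than that of the peaks, written in the direction of transcription. Capitals mark the half-sites searched on both strands, TTGGCA (or TGCCAA) of nuclear factor I and GTTAAT (or ATTAAC) of HNF1.
ALB promoter, chr4:73404037-73404286, plus strand: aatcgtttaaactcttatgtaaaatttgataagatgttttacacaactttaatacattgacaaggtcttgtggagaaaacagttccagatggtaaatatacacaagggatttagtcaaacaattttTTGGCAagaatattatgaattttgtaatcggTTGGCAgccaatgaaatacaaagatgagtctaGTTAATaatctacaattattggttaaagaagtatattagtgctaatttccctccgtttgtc
AFP promoter, chr4:73435971-73436220, plus strand: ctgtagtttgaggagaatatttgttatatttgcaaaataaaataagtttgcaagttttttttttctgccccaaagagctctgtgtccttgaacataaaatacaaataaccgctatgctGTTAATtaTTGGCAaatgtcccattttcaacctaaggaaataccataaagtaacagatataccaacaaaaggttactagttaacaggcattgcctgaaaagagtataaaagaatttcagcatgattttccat
FGA promoter, chr4:154590743-154590992, minus strand: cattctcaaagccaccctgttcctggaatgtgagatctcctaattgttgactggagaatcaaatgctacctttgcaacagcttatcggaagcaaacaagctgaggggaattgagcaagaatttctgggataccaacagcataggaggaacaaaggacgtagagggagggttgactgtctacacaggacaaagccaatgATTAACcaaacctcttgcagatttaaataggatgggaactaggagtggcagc
FGG promoter, chr4:154612657-154612906, minus strand: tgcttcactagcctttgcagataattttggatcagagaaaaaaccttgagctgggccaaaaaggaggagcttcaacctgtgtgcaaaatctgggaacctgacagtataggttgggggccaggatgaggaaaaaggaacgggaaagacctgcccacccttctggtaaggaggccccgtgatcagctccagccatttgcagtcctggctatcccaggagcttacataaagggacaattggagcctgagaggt

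Among the promoters of the RefSeq table, 10.8% of 35116 held the nuclear factor I half-site and 6.23% the HNF1 half-site in these 250 bases. The table held 7 of the 10 members, with 10 promoters, and TTR, C3 and HP were not among them. Of those 7 genes, ALB carried the nuclear factor I half-site at 2 places, starting 124 and 93 bases before the start, and AFP carried it once, starting 124 bases before it. HNF1 half-sites were found in promoters of ALB, AFP, SERPINA1, FGB and FGA. The HNF1 half-site of SERPINA1 was in the second of its 2 promoters. The full palindromes of nuclear factor I and of HNF1, in which 2 half-sites face each other, matched none of the 10 promoters. They were present in 0.0285% and 0.0057% of all promoters in the table. These matches are letters and not measured binding.

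SMRC1 peaks were found at all 10 loci, NFIC peaks at 9 and SATB1 peaks at 3, so that 9 loci had both SMRC1 and NFIC. For comparison, 18.4% of all 30 kb tiles of the genome held an SMRC1 peak, 10.9% an NFIC peak and 2.86% a SATB1 peak, and 7.58% held both SMRC1 and NFIC. The windows are 27 to 64 kb long, and the tiles also cover stretches without genes. Over the 350 kb the density was 0.914 peaks per 10 kb for SMRC1, 0.229 for SATB1 and 0.429 for NFIC, against 0.0951, 0.0106 and 0.0441 over the whole genome in the same order. The locus without an NFIC peak was TTR. SATB1 peaks were at C3, TF and SERPINA1. Of the 8, 6 were in the C3 window (0.938 per 10 kb), so the pooled SATB1 density rests mainly on that locus. The number of peaks differed widely between stretches, from 2 SMRC1 peaks at TF and at HP to 8 at SERPINA1, where they covered 20.1% of the window.

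**Figure D1:**
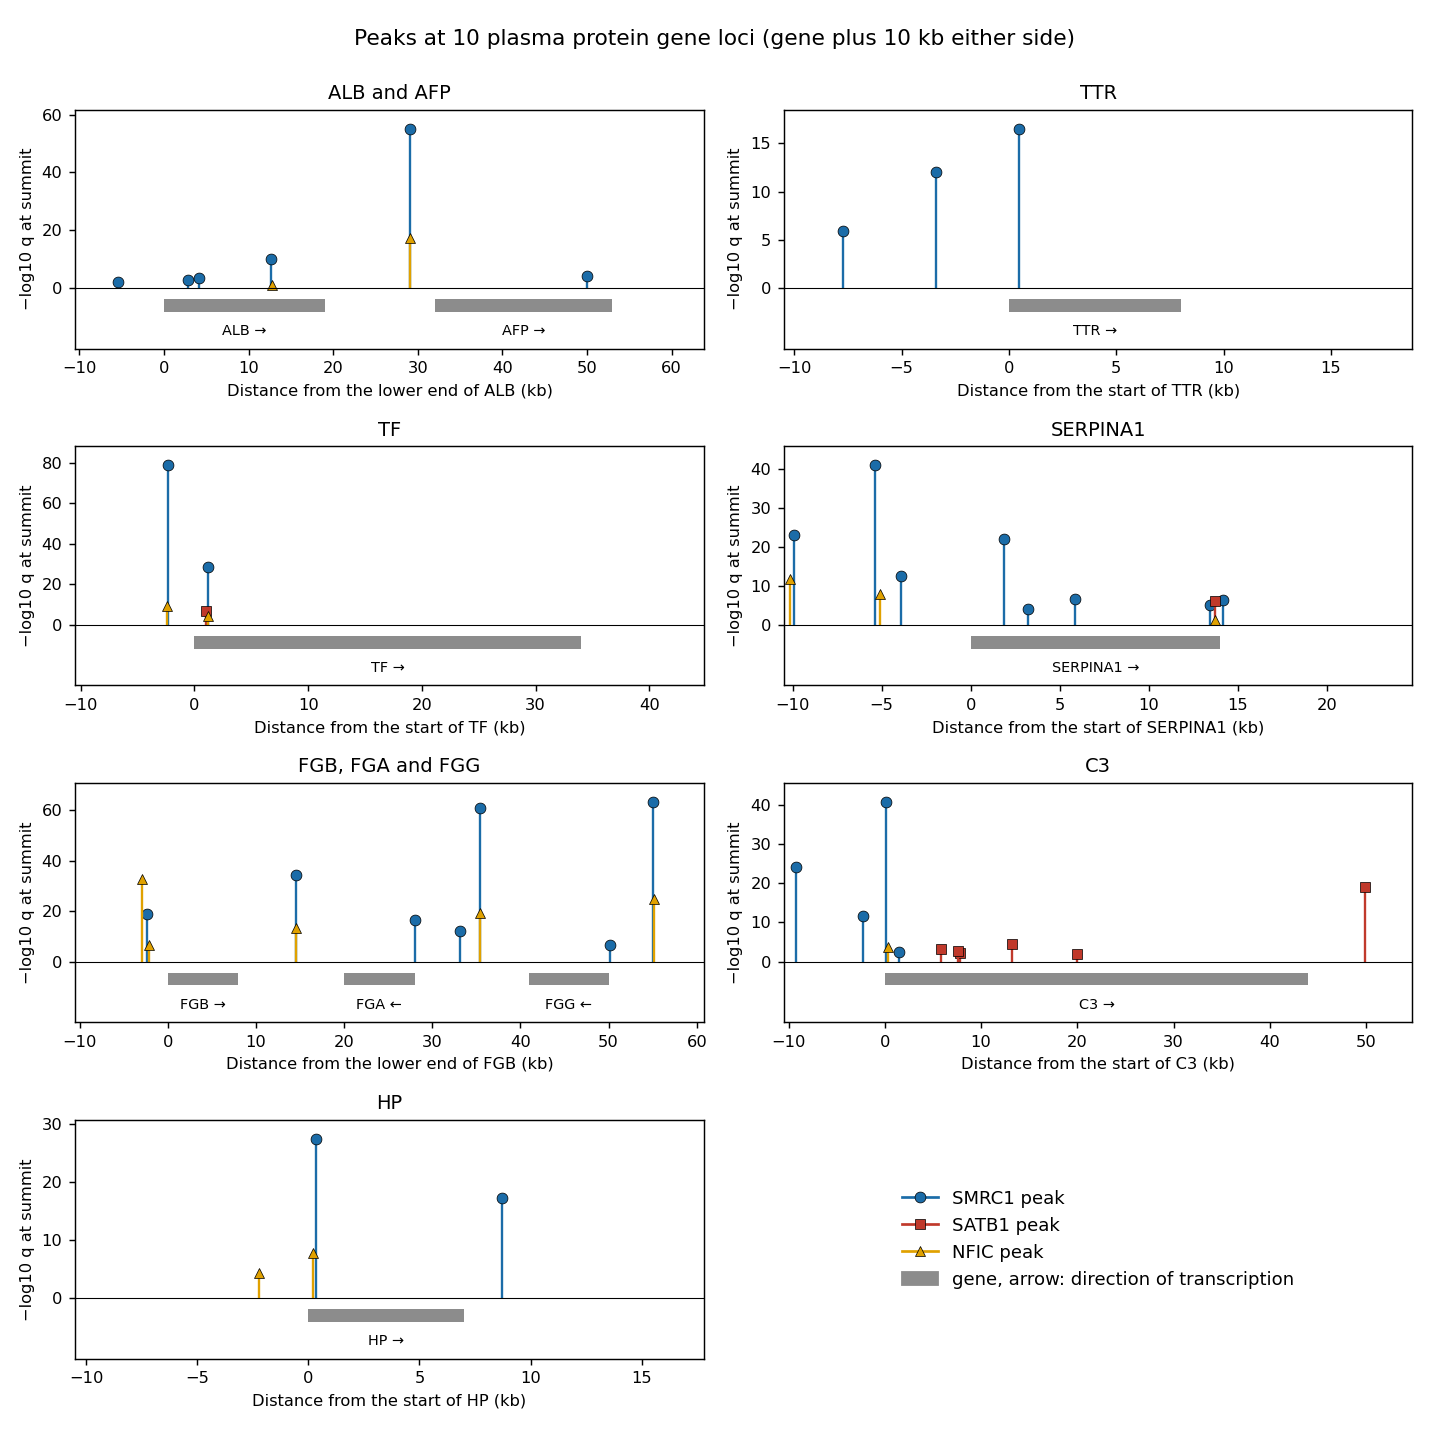
Peaks of the 3 lists at the 7 stretches, with the −log10 q at the summit (vertical axis, a different range in each panel) against distance in kb (horizontal axis, from the gene start in the direction of transcription, or from the lower coordinate end of ALB or FGB in the panels with several genes). Grey bars are the genes; SMRC1 peaks are in all 7 panels, and SATB1 peaks in the panels of TF, SERPINA1 and C3.

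The deposited strength of a peak is its −log10 q, which MACS2 computed from the reads at the summit and the local background. The fold is the authors' ratio of the same quantities. Peaks of SMRC1 at the loci had a median −log10 q of 14.5 (2.22 to 78.8), compared with 8.74 for the other SMRC1 peaks, and a median fold of 4.76, compared with 4.08. They were also wider, with a median of 830 bp against 607 bp. The direction depends on the flanks: for peaks overlapping the genes alone the medians were 6.63 for −log10 q and 3.57 for fold, both below those of the other SMRC1 peaks. A −log10 q of at least 10 was reached by 21 of the 32 (65.6%, exact 95% interval 46.8 to 81.4), where the share over the whole list was 43.7%. In the top 5% of the SMRC1 list stood 4 of these peaks, which belong to TF, FGG, FGA and the site between ALB and AFP.

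For SATB1 and NFIC the median −log10 q at the loci was below that of the rest of their lists. For SATB1 the median −log10 q was 3.85 at the loci and 5.41 elsewhere, and 1 of 8 peaks reached 10 (12.5%, 0.316 to 52.7; whole list 13.8%). Of these 8 SATB1 peaks, 5 lay within the C3 gene, with a −log10 q of 1.99 to 4.41. The others had 19.1 (past the end of C3), 6.97 (TF) and 6.01 (SERPINA1), all above 5.41. The lower SATB1 median thus rests on the C3 gene body. For NFIC the median was 7.83 at the loci and 9.27 elsewhere, and 6 of 15 reached 10 (40%, 16.3 to 67.7; whole list 46.3%). The median fold was 3.82 at the loci against 3.54 elsewhere for SATB1 (3.5 for peaks overlapping the genes alone), and 3.69 against 4.87 for NFIC. Both were wider at the loci by their medians, with 526 bp against 399 bp for SATB1 and 515 bp against 490 bp for NFIC. For NFIC this depends on the flanks, since the 5 peaks overlapping the genes alone were 308, 353, 445, 448 and 638 bp wide. NFIC summits at the loci held a median of 38 reads, against 32 elsewhere, and the median local background was 10 control fragments at the loci, against 6 elsewhere. No NFIC peak at the loci was in the top 10% of its list. Reads and background here were solved from the deposited fold and p-value, and the intervals cover counting error only.

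**Figure D2:**
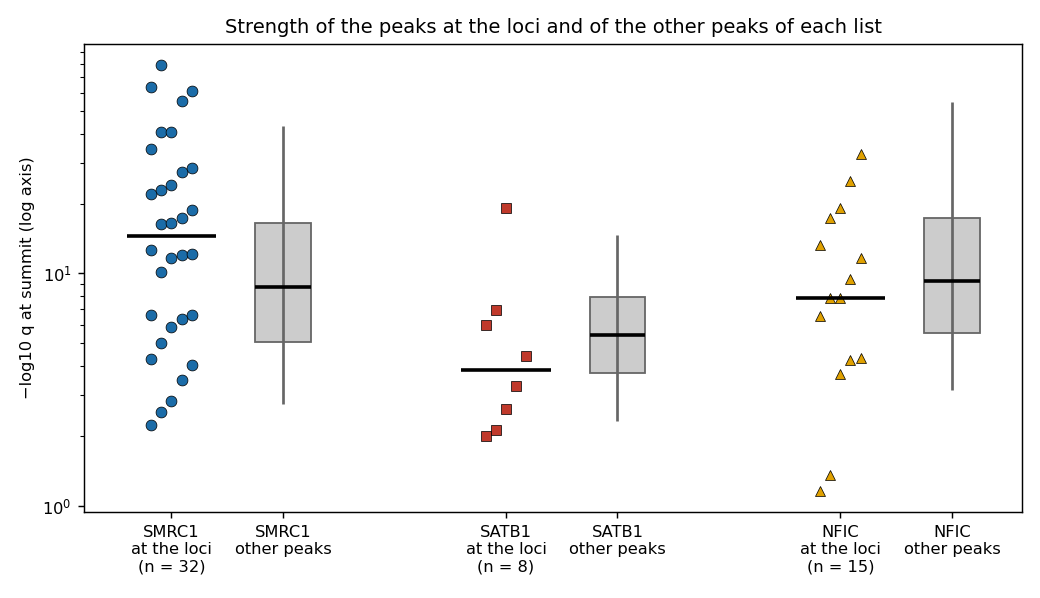
The −log10 q at the summit (log axis) of every peak at the loci (points; thick line, median) beside the other peaks of the same list (box, quartiles; whisker, 5th to 95th percentile; thick line, median). The SMRC1 median was 14.5 at the loci and 8.74 elsewhere, while the SATB1 and NFIC medians of this measure were lower at the loci than elsewhere. For SATB1 this rests on 5 of the 8 peaks, which lay within the C3 gene.

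Counted by locus, the strongest peak lay more often away from the gene start than over it. ALB and AFP share 1 such peak in each of the SMRC1 and NFIC lists, which is counted for both genes. The share of all peaks near a gene start is not given here, so these counts have no background beside them. For SMRC1, it was over the start at C3, HP and TTR and elsewhere at the other 7 loci. For NFIC, it was over the start at C3 and HP, and elsewhere at 7 of 9 loci. In all, 6 of the 32 SMRC1 peaks, 1 of the 8 SATB1 peaks and 3 of the 15 NFIC peaks came within 1 kb of a gene start. Each gene counted with 1 start, the end given in kb, so the second SERPINA1 start described below was left out.

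Of the transport proteins, albumin is the main carrier and osmotic protein of plasma, and alpha-fetoprotein is its fetal relative, made again in many liver tumours. The leading site of this pair lay between the genes, at 74297466 to 74299088 of chromosome 4, with its SMRC1 summit 2.96 kb before the AFP start. The SMRC1 peak had a fold of 6.55, 159 reads at the summit and rank 820 of 29441. An NFIC peak inside it (74297671 to 74298789) had a fold of 4.1 and 65 reads, and the summits were 19 bp apart. Background at this site was the highest among the solved peaks of the loci, at 18 control fragments for SMRC1 and 15 for NFIC.

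Within the ALB gene the peaks were weaker. The strongest was an SMRC1 peak 12.68 kb from the start (74281407 to 74282203), with a fold of 3.98 and 50 reads, and an NFIC peak there had a fold of 2.15 and 25 reads. That NFIC peak ranked 13635 of 13643, close to the bottom of the list. Another pair of SMRC1 peaks at 2.79 and 4.09 kb from the ALB start had folds of 2.86 and 3.16. A further SMRC1 peak 5.47 kb upstream had a fold of 2.28. In AFP itself, 1 SMRC1 peak lay 18.04 kb from the start with a fold of 3.66 and 24 reads. No SATB1 peak was listed at either gene. A gene start without a listed peak is one where no peak passed the authors' threshold, which does not exclude a weaker signal.

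Transthyretin carries thyroxine and, through retinol-binding protein, vitamin A. TTR had SMRC1 peaks only. One lay at the gene start as given in whole kb (29171222 to 29172020 of chromosome 18, fold 5.2, 59 reads), and the others lay 3.38 kb (fold 4.29, 54 reads) and 7.74 kb (fold 4.52, 22 reads) upstream. Their −log10 q values of 16.5, 12 and 5.88 fell with distance from the gene start. The strongest ranked 7344, the lowest rank among the leading SMRC1 peaks of the 10 loci.

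Transferrin is the iron carrier of plasma. TF held the strongest SMRC1 peak of all loci, 2.37 kb upstream of the gene start at 133460957 to 133462173 of chromosome 3. It had a fold of 13.3, 136 reads over a background of 7 control fragments and rank 296, within the top 1.01% of the list. The NFIC peak at this place had its summit 32 bp away, with a fold of 4.35 and 34 reads. The site thus ranked high for SMRC1 and in the middle of the list for NFIC (rank 6640). Over the TF start itself, peaks of all 3 lists coincided. The SMRC1 peak (133464521 to 133465471) had a fold of 6.84 and 78 reads, the SATB1 peak a fold of 4.15 and 29 reads, and the NFIC peak a fold of 2.89 and 31 reads. Their summits lay 1.17, 1.02 and 1.23 kb after the start, which is given in whole kb. No peak was listed in the rest of the gene.

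Haptoglobin captures free haemoglobin. At HP an SMRC1 peak (72087958 to 72088673 of chromosome 16, fold 6.73, 75 reads) and an NFIC peak (fold 3.52, 38 reads) overlapped over the gene start, with summits 130 bp apart. A second SMRC1 peak lay 8.73 kb from the start, past the end of the gene (72096542 to 72097471, fold 5.93, 54 reads). HPR, a close relative of HP, begins 2.2 kb past the end of HP in GRCh38, so by position this peak lay about where HPR begins. Reads of near-identical sequence could have been placed at either gene, which was not tested. An NFIC peak 2.21 kb upstream of HP (72085560 to 72085975, fold 3.69, 21 reads) was the single NFIC peak of the loci without an SMRC1 peak.

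SERPINA1 encodes alpha-1-antitrypsin, the main plasma inhibitor of neutrophil elastase. Its 8 SMRC1 peaks were spread from 9.93 kb upstream of the start to the end of the gene. The strongest lay 5.38 kb upstream (94861564 to 94862931 of chromosome 14, fold 7.14, 109 reads). Next came peaks 9.93 kb upstream (fold 5.46, 76 reads) and 1.88 kb inside the gene (94854375 to 94855566, fold 6.34, 64 reads). RefSeq lists 2 starts for SERPINA1, 2.03 kb apart in GRCh38, and the SMRC1 summit 1.88 kb inside the gene was at about that distance from the outer start. No list had a peak at the outer start.

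NFIC peaks accompanied SMRC1 at 3 SERPINA1 sites. They lay 10.16 kb upstream (fold 3.82, 49 reads), 5.10 kb upstream (fold 3.46, 39 reads) and 13.69 kb inside the gene near its end (fold 2.26, 24 reads, rank 13621). At the end of the gene a SATB1 peak 1462 bp wide (94842121 to 94843582, fold 3.48, 33 reads) overlapped this NFIC peak and a pair of SMRC1 peaks with folds of 3.29 and 3.42. It was the widest SATB1 peak of the loci.

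Fibrinogen, the precursor of the fibrin clot, is assembled from the products of FGA, FGB and FGG. Their cluster of 70 kb held 7 SMRC1 and 5 NFIC peaks and no SATB1 peak. It carried the strongest NFIC peaks of the loci. All 5 NFIC peaks of the cluster overlapped an SMRC1 peak. Both leading SMRC1 sites lay upstream of the minus-strand genes. One was 5.08 kb upstream of FGG (155538542 to 155539506 of chromosome 4, fold 9.77, 133 reads) and the other 7.41 kb upstream of FGA, between FGA and FGG (155518954 to 155520078, fold 10.5, 122 reads). NFIC peaks at these places had folds of 5.54 and 5.62, with 66 and 50 reads, and summits 50 and 15 bp from those of SMRC1.

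Upstream of FGB the order of the lists was turned round. The NFIC peak 2.95 kb upstream (155480801 to 155481499) had a fold of 6.49 and 74 reads, the highest NFIC values of the loci, while the SMRC1 peak there had a fold of 4.84 and 71 reads. The SMRC1 summit lay 648 bp from this NFIC summit and 179 bp from that of a second, weaker NFIC peak (fold 3.29, 36 reads) under the same SMRC1 peak. Between FGB and FGA a shared site (SMRC1 155498234 to 155498959) had folds of 7.2 for SMRC1 and 4.46 for NFIC. Peaks of SMRC1 alone covered the starts of FGA (155511623 to 155512486, fold 4.68, 65 reads) and FGG (155533551 to 155534410, fold 3.2, 44 reads), and another lay 5.16 kb upstream of FGA (fold 5.68, 38 reads). The FGB start had no listed peak within 1 kb.

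Complement C3 is the central protein of the complement cascade. SMRC1 and NFIC peaks at C3 lay at and upstream of the gene start or within 1.43 kb after it, and SATB1 peaks lay elsewhere. The SMRC1 peak over the start (6720165 to 6721625 of chromosome 19) had a fold of 7.92 and 98 reads, and the NFIC peak in it had a fold of 2.88 and 28 reads. SMRC1 peaks 2.27 kb (fold 4.34, 49 reads) and 9.26 kb (fold 5.21, 86 reads) upstream had no partner in the other lists. In GRCh38 the neighbouring gene GPR108 has its nearer end 9.3 kb from the C3 start, a distance close to that of the outermost of these peaks. A weak SMRC1 peak 1.43 kb after the start had a fold of 2.65.

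The C3 window held 6 of the 8 SATB1 peaks, and none of these 6 overlapped a peak of SMRC1 or NFIC. Within the gene, 5 of them lay between 6700723 and 6715444, a stretch of 14.7 kb without a listed SMRC1 or NFIC peak. Their folds were 3.16 to 5.08 and their −log10 q 1.99 to 4.41. The reads at the summits were 12, 13, 16, 17 and 14 in order of position, over backgrounds of 2 to 5 control fragments, so each rests on few reads. All 5 ranked in the lower part of the SATB1 list (rank 2092 to 3198 of 3296). The remaining peak lay past the end of C3 (6670876 to 6671455) and was far stronger, with a fold of 10.4, 28 reads over 2.04 control fragments and rank 70. This peak was 5.54 kb from C3. TNFSF14 is the next gene on that side, 7.1 kb from C3 in GRCh38, so by position the peak was nearer to TNFSF14. Which gene it acts on, if any, was not tested.

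NFIC peaks at the loci were nearly all at SMRC1 sites. Of the 15, 14 overlapped an SMRC1 peak (93.3%, exact 95% interval 68.1 to 99.8), against 51.8% of the other NFIC peaks and 51.9% of the whole list. The interval treats the peaks as independent, though 5 of the 15 lie in the fibrinogen cluster. From the other side, 13 of the 32 SMRC1 peaks had an NFIC peak (40.6%, 23.7 to 59.4), where both the other peaks and the whole list had 23.7%. SMRC1 peaks with NFIC had a median −log10 q of 34.2 (5 to 78.8), and the 19 without it 6.65 (2.22 to 24). Outside the loci the same medians were 17.2 and 7.5. Since the SMRC1 peaks of the loci, flanks included, had the higher median −log10 q, the share was also taken among those reaching a −log10 q of 10, a setting chosen after seeing the data. There 12 of 21 SMRC1 peaks at the loci had an NFIC peak (57.1%, 34 to 78.2), against 37.6% of the other peaks of that strength and 37.7% of the whole list. The lower bound of this interval lies below both.

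For SATB1 the share at SMRC1 sites was low at these loci. Of 8 peaks, 2 overlapped an SMRC1 peak (25%, 3.19 to 65.1), against 78.6% of the other SATB1 peaks and 78.5% of the whole list. The same 2 peaks, at TF and at the end of SERPINA1, overlapped an NFIC peak (25%; whole list 27.4%). The other 6 overlapped neither list, where the whole SATB1 list had 20.1%. All 6 were at C3, so this count rests on 1 locus. SATB1 peaks were found at 3 of the 32 SMRC1 peaks (9.38%; whole list 8.61%) and at 2 of the 15 NFIC peaks (13.3%; whole list 6.52%). No list overlapped 18 of the SMRC1 peaks at the loci (56.2%; whole list 70.7%) and 1 NFIC peak (6.67%; whole list 47.8%). The lists may rest on the same control library, which the sources used here do not name, and the part of a shared control in these overlaps was not tested.

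**Figure D3:**
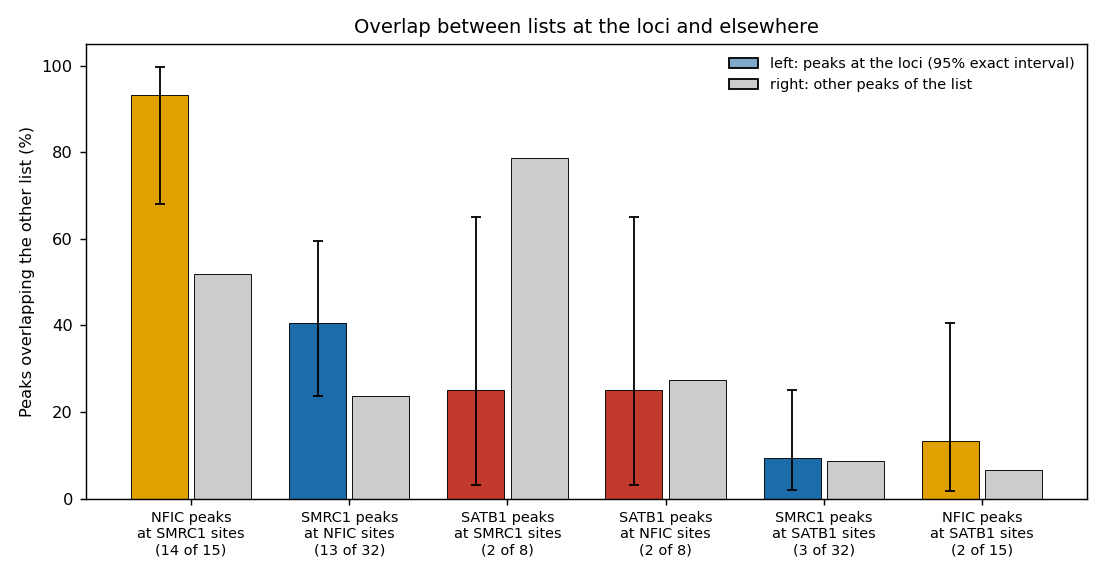
Share of peaks (vertical axis, percent) that overlapped a peak of another list by at least 1 bp, for peaks at the loci (coloured, with exact 95% interval) and for the other peaks of the same list (grey). NFIC peaks at SMRC1 sites stood at 93.3% at the loci and 51.8% elsewhere, and SATB1 peaks at SMRC1 sites at 25% and 78.6%.

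At 6 of the 7 stretches the strongest SMRC1 peak had an NFIC peak under it, TTR being the exception. Of all SMRC1 peaks reaching a −log10 q of 10, 37.7% had one. That is not a like comparison, since the 7 peaks were picked as the strongest and reached 16.5 to 78.8. No share for peaks of matched strength is given here. At 0 of the 7 stretches the strongest SMRC1 peak had a SATB1 peak. The share over the whole SMRC1 list, at any strength, was 8.61%, again not a like comparison. The 14 overlapping pairs of an SMRC1 and an NFIC peak had summits 15 to 648 bp apart, with a median of 106 bp. In 13 of the 14 the fold was higher in the SMRC1 list, where 63.8% of the 7143 such pairs in the whole lists had the higher fold in SMRC1. The pair with its NFIC summit 2.95 kb upstream of FGB was the exception. Folds of different antibodies also depend on how well each antibody enriched and on depth, so they order sites within a list more safely than between lists.

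**Figure D4:**
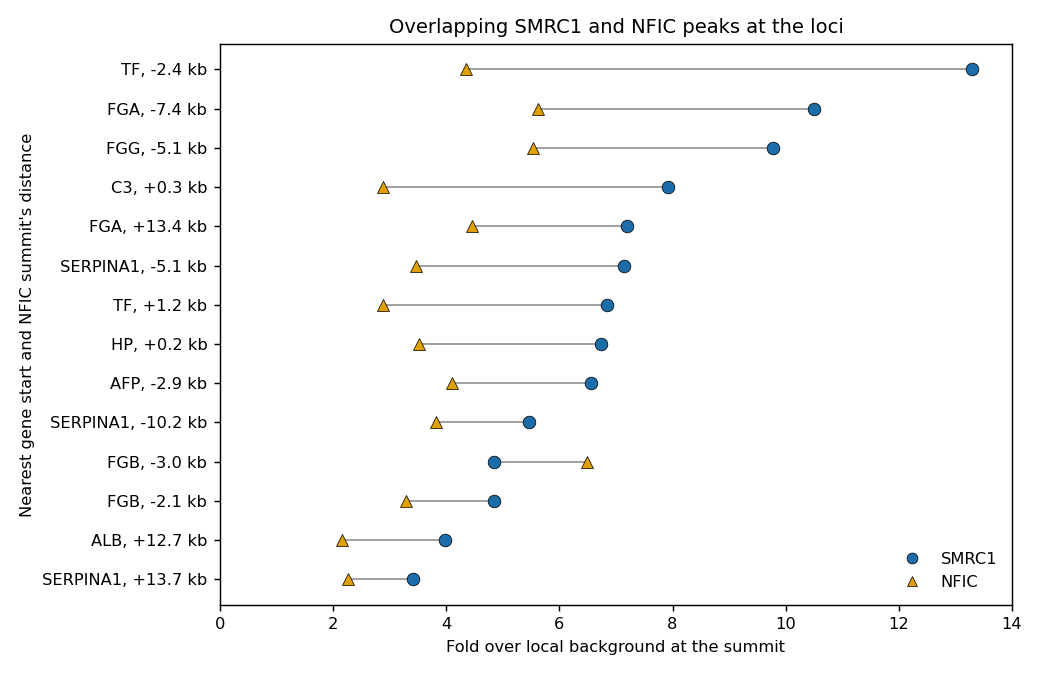
Fold over local background at the summit (horizontal axis) of the 14 overlapping pairs of SMRC1 (circles) and NFIC (triangles) peaks, each row labelled by the nearest gene start and the distance of the NFIC summit from it. The SMRC1 fold was the higher one in 13 rows, from 13.3 at TF. The NFIC fold was the higher one in the FGB row whose NFIC summit lay 2.95 kb upstream.

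The order of loci differed between SMRC1 and NFIC. By the −log10 q of the strongest peak, SMRC1 followed the order TF (78.8), FGG (63.3), FGA (60.8), the site shared by ALB and AFP (55.1), SERPINA1 (40.8), C3 (40.6), FGB (34.2), HP (27.4) and TTR (16.5). NFIC followed FGB (32.6), FGG (25), FGA (19.1), ALB and AFP (17.4), SERPINA1 (11.7), TF (9.48), HP (7.82) and C3 (3.69). TF thus headed the first order and stood in the lower part of the second. At FGB and SERPINA1 the values of SMRC1 and NFIC come from different sites. For FGB the SMRC1 value is that of the peak 14.51 kb from its start, also in the FGA window. Its NFIC value is that of the site 2.95 kb upstream, where SMRC1 had 18.8. For SERPINA1 the SMRC1 site lay 5.38 kb upstream and the NFIC site 10.16 kb upstream. With 1 library each, it cannot be said which neighbours in these orders differ.

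The flank of 10 kb is a round limit. The SMRC1 peak nearest to it on the inside was 9.55 kb from SERPINA1 (fold 5.46), and the nearest outside was 11.6 kb from HP (72075996 to 72076449, fold 3.84). For NFIC these were 9.89 kb from SERPINA1 (fold 3.82) and 16.8 kb from C3 (fold 3.24). For SATB1 they were 5.54 kb from C3 (fold 10.4) and 12.1 kb from FGB (fold 3.94).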

How the data were processed

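Peak lists of 3 HepG2 ChIP-seq libraries, 1 per antibody, were used. The submitters' processing notes name hg19 as build and Bowtie 1.1.2, SAMtools, MACS2 2.1.1 and deepTools as tools. Which settings and which control library were used is not given in the sources used here. The 10 columns of a list follow the narrowPeak layout. The deposited score is derived from the −log10 q. The deposited fold is a ratio at the summit over the local background, and the peak caller's p-value and q-value were deposited as −log10 p and −log10 q. The deposited summit offset gave the other position used.

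From these, peaks overlapping each window by at least 1 bp were collected. Gene positions, given in kb, came with the choice of loci and not from an annotation of hg19. Strands are textbook knowledge. The members and lists were chosen with earlier results of these data known. All 10 members are named, with the strongest peak of each list at each locus. Other plasma protein genes were not analysed here, since no hg19 annotation was used. Gene lengths differed from GRCh38.p14 by at most 1.8 kb, except for TF (34 kb here and 134.6 kb in GRCh38.p14, whose table gives it 2 starts 84.4 kb apart).

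Reads at the summit and background were solved from the fold and the Poisson p-value of MACS2, keeping solutions whole within 0.02 reads and unique. This gave 92.1%, 96% and 96.3% of SMRC1, SATB1 and NFIC peaks, and ChIP libraries 1.29, 0.877 and 1.01 times as deep as their control. Absolute depth is unknown. The solution was tested on simulated data. At the loci, 30 of 32 SMRC1 peaks and all SATB1 and NFIC peaks were solved. Shares have exact Clopper-Pearson 95% intervals. Tiles of 30 kb used hg19 chromosome lengths from circlize 0.4.16 in R 4.3.3. Calculations ran in Python 3.11.15 with scipy 1.17.1, pandas 2.3.3, numpy 2.4.6 and matplotlib 3.10.9. Alternatives were flanks of 0, 5 and 20 kb, stricter q limits, summits in place of overlaps, stricter overlaps and other tiles.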

Additional observations from a re-analysis of the deposited data

How the results depend on the processing

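With flanks of 5 or 20 kb, with summits inside the window or with a −log10 q of at least 2, the counts of peaks and of loci with a peak stayed within 1.5 times those given. Without flanks, 16 SMRC1 and 5 NFIC peaks were left, and 5 loci had an NFIC peak. The median −log10 q was then 6.63 for SMRC1, below the 8.74 of the other SMRC1 peaks, and 3.69 for NFIC. The median fold was 3.57 for SMRC1, below the 4.08 of the other peaks, and 2.88 for NFIC. At a −log10 q of at least 10, 21 SMRC1 peaks, 1 SATB1 peak and 6 NFIC peaks were left, and 1 locus had a SATB1 peak. The NFIC medians were then 18.3 for −log10 q and 5 for fold, and 6 of 6 of these NFIC peaks overlapped SMRC1 (100%, exact 95% interval 54.1 to 100), against 54.7% of the other NFIC peaks of that strength. That limit was chosen with the values in view, and the lower bound lies below the share elsewhere. By summit, 0 loci had a SATB1 peak over the gene start. In tiles of 50 kb, 25.6%, 4.58% and 16.4% held an SMRC1, SATB1 and NFIC peak, and among 30 kb tiles with any peak 83.7%, 13% and 49.7%. The other shares stayed inside their intervals under the stricter overlaps. The share of NFIC peaks at SMRC1 sites fell from 93.3% to 73.3% when summits had to lie within 250 bp. The share elsewhere at that setting is not given here, so the contrast with the other NFIC peaks cannot be read from it. No paired analysis was possible because each antibody had 1 library. The SATB1 peaks within C3 rest on 12 to 17 reads each, and absolute depth is unknown.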
